A study of Capra hircus with 20 samples.

Results

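The genes described here are 8 markers of brain regions that lie beside the hypothalamus, read in RNA libraries made from goat hypothalamus. SLC17A7, NEUROD6 and TBR1 mark excitatory neurons of the cerebral cortex. DRD1, DRD2, ADORA2A and PPP1R1B mark the medium spiny neurons of the striatum, and TCF7L2 marks the thalamus. They were found by matching their symbols to NCBI gene identifiers in the goat ARS1.2 annotation, and all 8 were among the 21071 genes of the deposited expression table. Each of the 8 also passed the filter on low values, as did 16771 of the 21071 genes in all. The rule uses gene names and no measured value, but the genes were proposed with earlier results of these data known.

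The study followed the hypothalamus of female Jining grey goats at 4 ages between birth and sexual maturity. The 20 libraries fell into 4 groups of 5, named D1 (1 day old), M2 (60 days), M4 (120 days) and M6 (180 days), and each library came from a goat of its own. The labels name no treatment, so the groups differed by age and shared breed, sex and tissue. All libraries were strand-specific, made from total RNA after removal of ribosomal RNA, and no label described how the tissue was cut from the brain. Values are FPKM, fragments scaled to transcript length and to the mapped fragments of the library, so levels of different genes are stated per transcript length. The summed FPKM of a library lay between 260199 and 377479, and 15754 to 17593 genes were above 0. The deposited table holds no read counts, and precision is therefore read from the spread between goats.

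As background, the forebrain develops from the telencephalon, which gives the cortex and striatum, and the diencephalon, which gives the thalamus and hypothalamus. Cortical projection neurons release glutamate loaded into vesicles by VGLUT1, the product of SLC17A7, whereas striatal projection neurons are inhibitory and receive dense dopamine input. Dopamine acts on these neurons through the D1 receptor of the direct pathway and the D2 receptor of the indirect pathway. The hypothalamus contains no cortex, has few neurons of the striatal type and borders the thalamus above it. Its own cells release neuropeptides such as oxytocin, vasopressin, orexin and melanin-concentrating hormone.

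The labelled tissue was checked against 13 hypothalamic genes (NKX2-1, SIM1, OTP, NR5A1, FEZF1, HCRT, PMCH, OXT, AVP, GHRH, TRH, POMC and AGRP). Their summed level ran from 1.46 FPKM in M4 replicate 3 to 917 FPKM in M6 replicate 5. It was under 20 FPKM in 11 of 20 libraries and over 400 FPKM in 4. NR5A1, the factor of the ventromedial nucleus, did not exceed 0.455 FPKM, and GHRH was above 0 in D1 replicate 3 only, at 0.71 FPKM. Other genes of the list were not as low. POMC was at least 1 FPKM in 14 of 20 libraries and AVP in 13, and neither was listed at 0 in any. PMCH reached 375 FPKM and OXT 413 FPKM. Several defining markers of the hypothalamus, but not all, were thus near 0 in many libraries labelled as hypothalamus. Of 9 pituitary genes 8 could be matched, and their sum stayed between 0 and 3.77 FPKM.

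In 5 of the 20 libraries a regional marker stood far above its usual level, defined after the values were seen as over 5 times its median of 20 libraries and at least 20 FPKM. D1 replicate 4, M2 replicate 4 and M6 replicate 2 were high in striatal markers. M4 replicate 1 was high in cortical markers, and M4 replicate 2 was high in TCF7L2. Of all 16771 tested genes, 128 (0.763%) met the same definition in D1 replicate 4, 101 in M4 replicate 1 and 62 in M4 replicate 2. It was met by 38 genes in M6 replicate 2 and by 26 (0.155%) in M2 replicate 4. M2 replicate 3 (47 genes) and M2 replicate 1 (45 genes) had more than M6 replicate 2 but were high in no marker. The fewest were 5 genes, in M6 replicate 1. TCF7L2 at 32.6 FPKM in D1 replicate 3 exceeded 20 FPKM but not 5 times its median of 10.8 FPKM. Other values exceeded 5 times the median but not 20 FPKM. Among them were ADORA2A in M6 replicate 2 (18.7 FPKM) and M2 replicate 4 (10.7 FPKM), and DRD1 (10.1 FPKM) and TBR1 (7.74 FPKM) in M4 replicate 1. Stage means, spreads, stage tests and correlations are given below with these 5 libraries and without them.

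**Figure D1:**
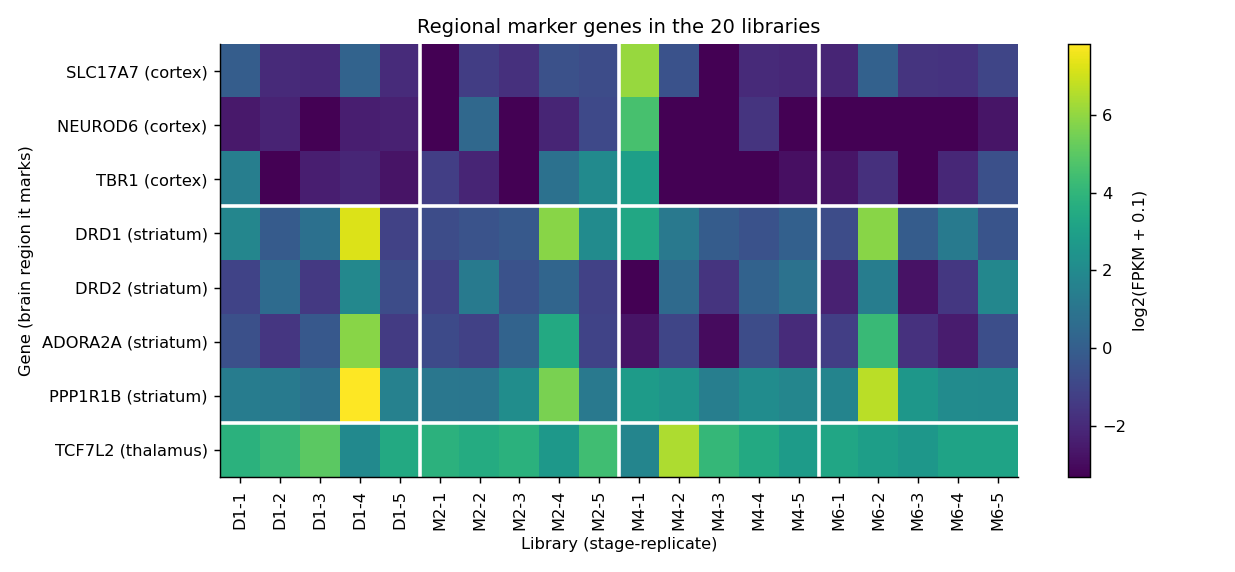
Level of the 8 marker genes (rows, with the region each marks) in the 20 libraries (columns, 5 per stage) as log2(FPKM + 0.1), from dark (low) to yellow (high). The bright cells of the striatal genes lie in D1-4, M2-4 and M6-2, those of the cortical genes in M4-1 and that of TCF7L2 in M4-2.

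SLC17A7 lies on chromosome 18 (56899764 to 56911150, ARS1.2; gene identifier 102169042) and encodes VGLUT1, the vesicular glutamate transporter of most cortical excitatory neurons. It was measured at 0.890, 0.155, 0.147, 1.07 and 0.161 FPKM in D1 replicates 1 to 5 and at 0, 0.304, 0.193, 0.584 and 0.505 FPKM in the M2 replicates. The M4 replicates held 68.0, 0.602, 0, 0.153 and 0.135 FPKM, and the M6 replicates held 0.121, 1.01, 0.217, 0.212 and 0.401 FPKM. One library, M4 replicate 1, stood at 321 times the median of the other 19 and carried 90.8% of the FPKM of this gene summed over all libraries. In the 19 others the gene stayed at or below 1.07 FPKM, and the ranges of all 4 stages overlapped.

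NEUROD6 (chromosome 4, 55165683 to 55168646; 102183660), a transcription factor of differentiating cortical projection neurons, was listed at 0 in 10 of 20 libraries. Its values were 0.0689, 0.116, 0, 0.0906 and 0.103 FPKM in the D1 replicates and 0, 1.26, 0, 0.125 and 0.444 FPKM in the M2 replicates. They were 23.7, 0, 0, 0.224 and 0 FPKM in the M4 replicates and 0, 0, 0, 0 and 0.0555 FPKM in the M6 replicates. M4 replicate 1 was again the high library and carried 90.5% of the total, and the next highest was M2 replicate 2 at 1.26 FPKM.

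TBR1 (chromosome 2, 101186231 to 101195632; 102191744), a T-box transcription factor of deep-layer cortical neurons, was spread over more libraries. It was measured at 2.65, 0, 0.0907, 0.129 and 0.0485 FPKM in the D1 replicates and at 0.325, 0.120, 0, 1.70 and 3.96 FPKM in the M2 replicates. The M4 replicates held 7.74, 0, 0, 0 and 0.0392 FPKM and the M6 replicates 0.0555, 0.194, 0, 0.139 and 0.553 FPKM. M4 replicate 1 was the highest but carried only 43.6% of the total. M2 replicate 5, D1 replicate 1 and M2 replicate 4 followed, and in all of these SLC17A7 was under 1 FPKM. In M4 replicate 1 the ratio of NEUROD6 to SLC17A7 was 0.348 and that of TBR1 to SLC17A7 was 0.114.

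The 7 other cortical genes of the list (NEUROD2, EMX1, FEZF2, CUX2, LAMP5, SLC30A3 and KCNV1) were read beside the 3 cortical markers. In M4 replicate 1 all 7 were at or above 1 FPKM and 6 of 7 had their highest value there. Their sum was 95.9 FPKM there, against 2.28 to 6.63 FPKM in the 15 libraries that were not high in a marker. It was 52.5 FPKM in D1 replicate 4, 29.1 in M2 replicate 4, 27.1 in M6 replicate 2 and 9.46 in M4 replicate 2. LAMP5 alone made up 61.1 of the 95.9 FPKM. Factors of cortical identity were among the 7 genes. EMX1 reached 1.10 FPKM in M4 replicate 1 and at most 0.0698 FPKM elsewhere, and NEUROD2 3.79 against 0.168 FPKM. KCNV1, a potassium channel subunit, was 18.8 FPKM there and at most 5.88 FPKM elsewhere. The same library had the lowest summed level of 6 oligodendrocyte genes, 450 FPKM against a median of 6650 FPKM over 20 libraries, and the lowest sum of 4 astrocyte genes, 609 FPKM. It had the highest sum of 7 neuronal genes, 2271 FPKM, and no hypothalamic gene of the 13 at or above 1 FPKM. The part of these other cell types in the cortical values was not tested.

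LAMP5, a membrane protein of cortical and other forebrain neurons, was not limited to the library rich in SLC17A7. It had 61.1 FPKM in M4 replicate 1, 45.0 in D1 replicate 4, 23.6 in M2 replicate 4 and 22.1 in M6 replicate 2, and at most 3.13 FPKM in the 15 libraries not high in a marker. Its 4 leading libraries were thus the 1 high in cortical markers and the 3 high in striatal markers. SLC17A7, NEUROD6 and EMX1 did not share these values in the striatal libraries, where SLC17A7 was between 0.584 and 1.07 FPKM.

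DRD1 (chromosome 10, 95514212 to 95518301; 102168830) encodes the D1 dopamine receptor of the direct pathway. It was measured at 3.34, 0.816, 1.64, 150.6 and 0.361 FPKM in the D1 replicates and at 0.508, 0.626, 0.774, 57.2 and 3.99 FPKM in the M2 replicates. The M4 replicates held 10.1, 2.20, 0.859, 0.601 and 0.953 FPKM and the M6 replicates 0.505, 56.4, 0.846, 2.32 and 0.637 FPKM. D1, M2 and M6 thus contained 1 library each above 50 FPKM, and M4 contained none. The highest M4 value was in the library rich in cortical markers, at 11.8 times the median of the other 19.

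PPP1R1B (chromosome 19, 39648067 to 39656690; 102180696) encodes DARPP-32, the phosphatase inhibitor through which medium spiny neurons relay dopamine signals. It was the only striatal marker at or above 1 FPKM in all 20 libraries. Its values were 2.44, 2.33, 1.76, 226 and 2.88 FPKM in the D1 replicates and 2.01, 1.98, 4.27, 48.1 and 2.17 FPKM in the M2 replicates. They were 6.82, 5.48, 2.61, 4.19 and 3.40 FPKM in the M4 replicates and 3.21, 102, 5.95, 4.02 and 3.87 FPKM in the M6 replicates. The same 3 libraries were high as for DRD1, at 66.5, 14.1 and 29.9 times the median of the other 19. The remaining values were close together: without the 5 high libraries PPP1R1B was 3.14 ± 1.15 FPKM (SD, n = 15).

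ADORA2A (unplaced scaffold, 65795 to 80888; 102183812) encodes the adenosine receptor, which sits beside the D2 receptor on neurons of the indirect pathway. It was measured at 0.557, 0.236, 0.727, 56.9 and 0.281 FPKM in the D1 replicates and at 0.459, 0.344, 1.07, 10.7 and 0.375 FPKM in the M2 replicates. The M4 replicates held 0.0521, 0.402, 0.0256, 0.494 and 0.161 FPKM and the M6 replicates 0.317, 18.7, 0.197, 0.0813 and 0.545 FPKM. The 3 high libraries were those of DRD1 and PPP1R1B, and every other library stood at or below 1.07 FPKM.

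DRD2 (chromosome 15, 58379253 to 58392534; 102177355) encodes the D2 receptor, which besides the striatum is known from dopamine neurons themselves and from pituitary lactotrophs. It was low in every library. The D1 replicates held 0.369, 1.38, 0.257, 3.56 and 0.494 FPKM and the M2 replicates 0.342, 2.33, 0.592, 1.13 and 0.340 FPKM. The M4 replicates held 0, 1.33, 0.216, 1.05 and 1.75 FPKM and the M6 replicates 0.103, 2.51, 0.0442, 0.248 and 3.51 FPKM. D1 replicate 4 was the highest, but M6 replicate 5, with ADORA2A at 0.545 FPKM, followed at 3.51 FPKM. M2 replicate 4 was below M2 replicate 2, in which DRD1, ADORA2A and PPP1R1B were all low.

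**Figure D2:**
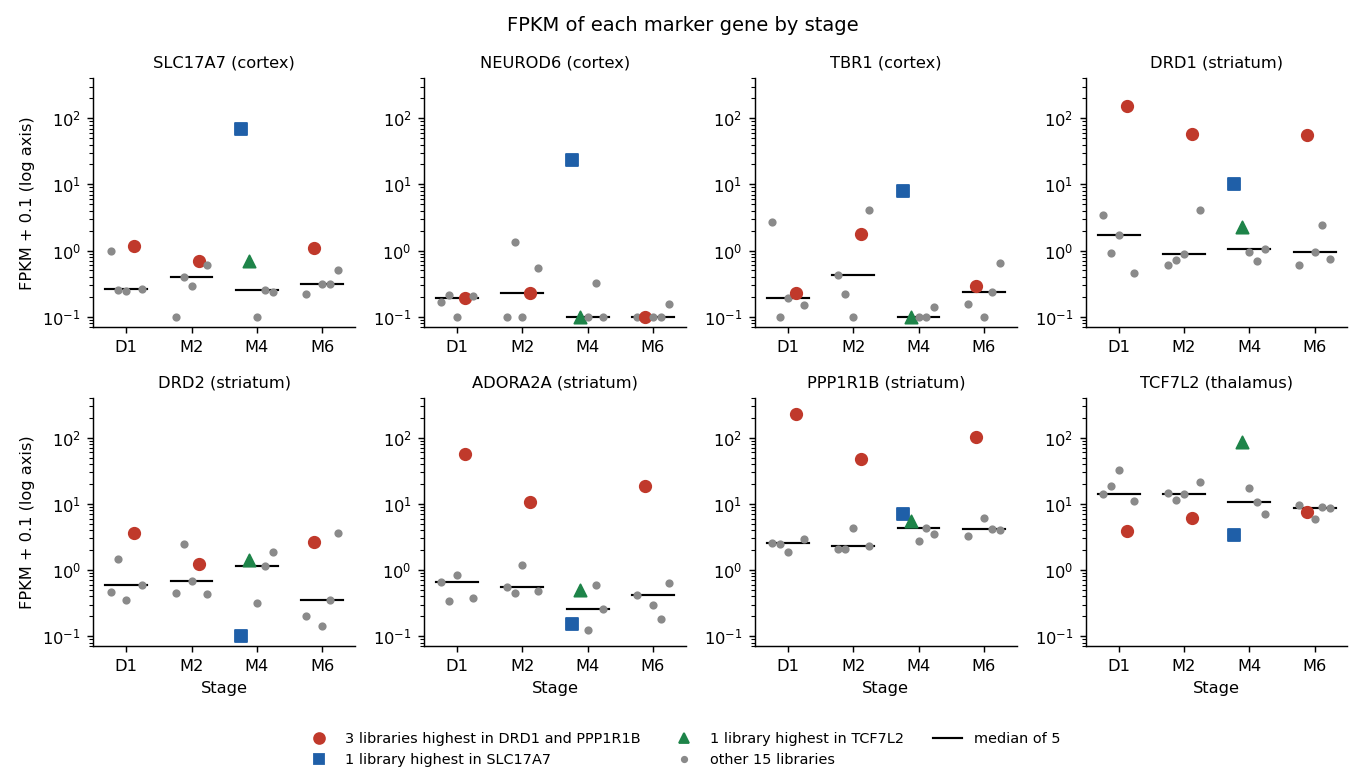
FPKM + 0.1 on a log axis for each marker gene by stage, 1 point per goat and a black line at the median of 5. Red circles are D1-4, M2-4 and M6-2, the blue square is M4-1, the green triangle is M4-2 and grey points are the other 15 libraries. DRD1, ADORA2A and PPP1R1B share their 3 high libraries, whereas for DRD2 grey points reach the same height.

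Among the 3 libraries high in striatal markers, the proportion of ADORA2A to PPP1R1B varied less than that of DRD1. The ratio of ADORA2A to PPP1R1B was 0.252 in D1 replicate 4, 0.222 in M2 replicate 4 and 0.184 in M6 replicate 2. The ratio of DRD1 to PPP1R1B was 0.666, 1.19 and 0.556 in the same order, and that of DRD2 to DRD1 was 0.0236, 0.0197 and 0.0445. The FPKM of DRD2 was thus a small fraction of that of DRD1 in these libraries, while ADORA2A, the partner of DRD2 on the indirect pathway, was between 0.186 and 0.378 of DRD1. Whether the annotation covers the transcripts of each gene equally well was not tested. With 1 library per stage these ratios have no replicate error, and no test was made between them.

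The 11 other striatal genes were RGS9, PDE10A, PDE1B, RASD2, GPR6, SYNDIG1L, SCN4B, ADCY5, RASGRP2, PENK and TAC1. Of these 9 had their highest value in D1 replicate 4, and the exceptions were SCN4B, a sodium channel subunit highest in M6 replicate 2, and RASGRP2, highest in M6 replicate 5 at 2.66 FPKM. Their summed level was 1060.4 FPKM in D1 replicate 4, 533 in M6 replicate 2 and 266 in M2 replicate 4, against 30.2 to 77.5 FPKM in the 15 libraries not high in a marker. TAC1, the substance P precursor of the direct pathway with a median of 16.4 FPKM, reached 461, 281 and 118 FPKM in these 3 libraries, and PENK, the enkephalin precursor of the indirect pathway, reached 202, 66.5 and 50.5 FPKM. PDE10A, the phosphodiesterase of these neurons, reached 154, 54.5 and 31.2 FPKM. The order D1 replicate 4, M6 replicate 2, M2 replicate 4 was shared by PPP1R1B, ADORA2A, TAC1, PENK and PDE10A, whereas for DRD1 the second and last of them differed by less than 1 FPKM.

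**Figure D3:**
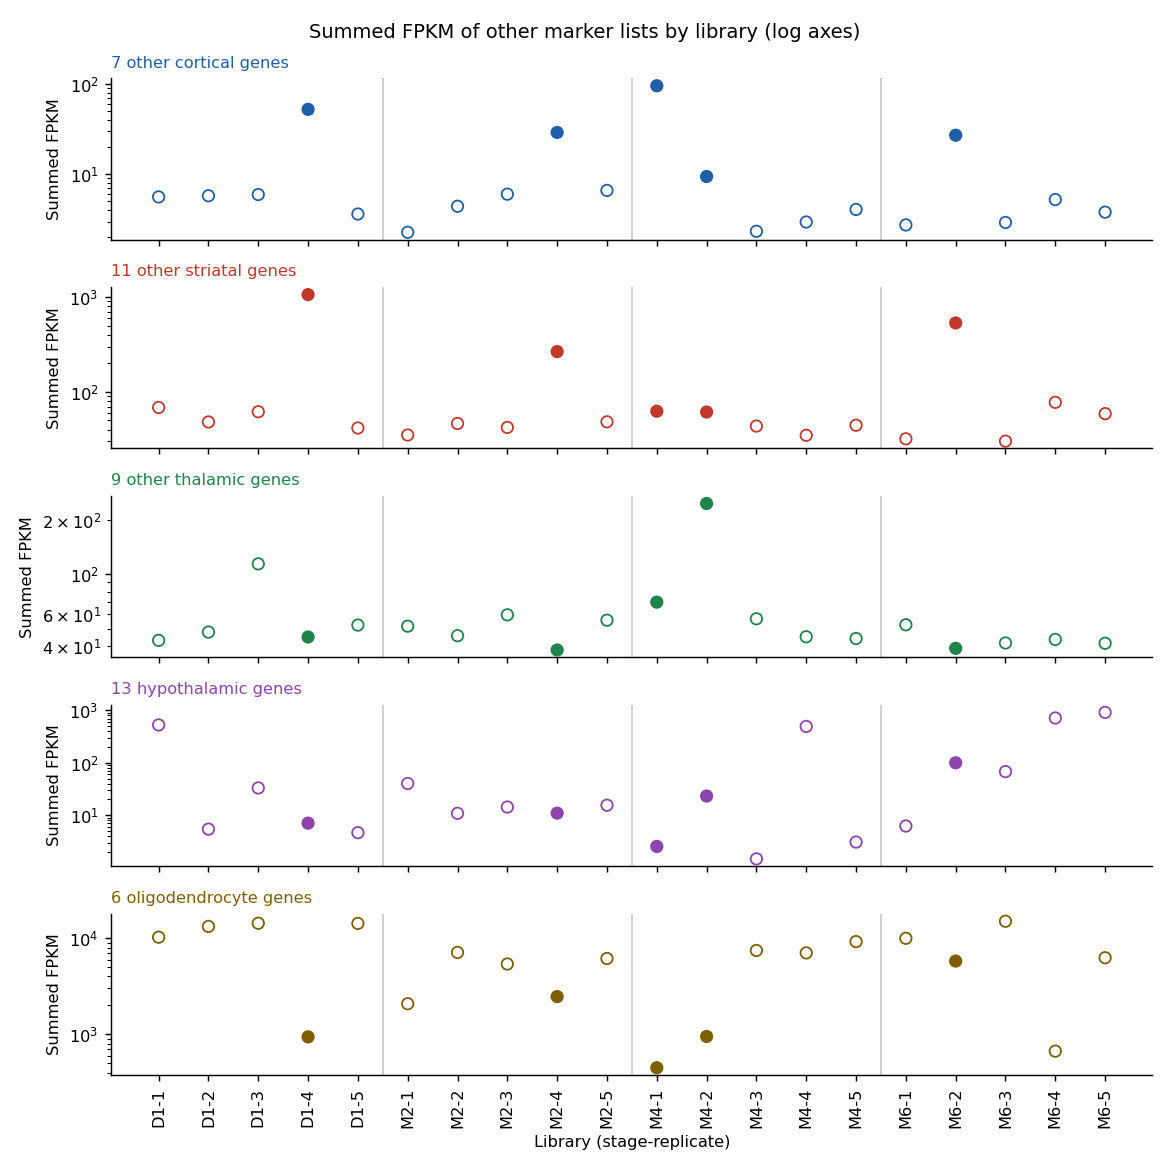
Summed FPKM (log axes) of 7 cortical, 11 striatal and 9 thalamic genes other than the 8 markers, and of 13 hypothalamic and 6 oligodendrocyte genes, in each library. Filled points are the 5 libraries high in a marker, and the sum of the region each is high in stands above the open points of the other 15, whose hypothalamic sums spread from 1.46 to 917 FPKM.

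Some glial levels moved with the high libraries. The sum of 4 astrocyte genes (AQP4, GFAP, ALDH1L1 and SLC1A2) took its 5 lowest values in exactly the 5 libraries high in a marker, at 609 FPKM in M4 replicate 1, 921 in D1 replicate 4, 1101 in M4 replicate 2, 1165 in M2 replicate 4 and 1345 in M6 replicate 2, against 1462 to 3919 FPKM in the other 15. GFAP alone took its 5 lowest values in the same libraries, at 296 to 908 FPKM. SLC1A2, an astrocyte glutamate transporter, went the other way, with its 3 highest values in D1 replicate 4 (278 FPKM), M6 replicate 2 (238 FPKM) and M4 replicate 1 (221 FPKM), against at most 189.7 FPKM in the other 15. The sum of 6 oligodendrocyte genes was 450 to 5785 FPKM in the 5 and 670 to 15018 FPKM in the 15, so that these ranges overlapped. The sum of the hypothalamic genes was 2.53 to 99.8 FPKM in the 5 and 1.46 to 917 FPKM in the 15. Of the 15 libraries not high in a marker, 8 had a hypothalamic sum under 20 FPKM. One of these, M2 replicate 5, held the second highest TBR1. D1 replicate 1, at rank 3 for TBR1 with 2.65 FPKM, had a hypothalamic sum of 527 FPKM, also rank 3 of 20. In whole tissue, fewer cells of a type and less RNA per cell cannot be told apart, and the part of glial content in the marker values was not tested.

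TCF7L2 (chromosome 26, 18332418 to 18532785; 102180102), a transcription factor of the Wnt pathway that maintains thalamic neurons, was the marker with the highest usual level. It is also expressed in maturing oligodendrocytes. Its values were 13.9, 18.4, 32.6, 3.85 and 10.9 FPKM in the D1 replicates and 14.4, 11.4, 14.0, 6.05 and 21.1 FPKM in the M2 replicates. They were 3.28, 86.3, 17.1, 10.7 and 6.91 FPKM in the M4 replicates and 9.55, 7.51, 5.81, 8.86 and 8.63 FPKM in the M6 replicates. M4 replicate 2 stood at 8.09 times the median of the other 19. The lowest values of D1, M2 and M4 were in the libraries rich in striatal or cortical markers, D1 replicate 4, M2 replicate 4 and M4 replicate 1. At M6 the gene varied little between goats, 8.07 ± 1.46 FPKM (SD, n = 5).

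Of the 9 other thalamic genes (GBX2, LEF1, PRKCD, TNNT1, SYNPO2, RORA, NTNG1, PLEKHG1 and SHOX2) 5 had their highest value in M4 replicate 2. Their sum was 245 FPKM there, 114 FPKM in D1 replicate 3 and between 38.0 and 69.9 FPKM in the other 18. NTNG1, a netrin-related adhesion protein of thalamic axons, was 82.9 FPKM in M4 replicate 2 and 27.1 FPKM in D1 replicate 3, with a median of 4.71 FPKM over 20 libraries. RORA, a nuclear receptor of thalamic relay neurons, was 79.8 and 50.6 FPKM in these libraries. The homeobox factors GBX2 and SHOX2 were 18.2 and 17.3 FPKM in M4 replicate 2, and no other library exceeded 4.14 FPKM of GBX2 or 1.75 FPKM of SHOX2. SLC17A6, which encodes VGLUT2, the glutamate transporter of thalamic and hypothalamic neurons, had its highest values in M4 replicate 2 and D1 replicate 3, 231 and 109 FPKM against a median of 13.8 FPKM. Other genes of the thalamic list were highest elsewhere. TNNT1 had 27.0 FPKM in M4 replicate 1, the library high in cortical markers, and 13.6 FPKM in M4 replicate 2. PRKCD was highest in M2 replicate 1, SYNPO2 in D1 replicate 5 and PLEKHG1 in M4 replicate 3.

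Oligodendrocyte genes differed between the 2 libraries with the most TCF7L2. Their sum was 951 FPKM in M4 replicate 2, the 17th of 20, and 14307 FPKM in D1 replicate 3, the 2nd of 20. The 4 genes of the oligodendrocyte lineage (SOX10, ENPP6, BCAS1 and MYRF) summed to 35.2 and 313 FPKM in the same order. The part of oligodendrocytes in the TCF7L2 values was not tested.

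Genes that followed each marker most closely were ranked by Pearson's r of log2(FPKM + 0.1) after subtraction of the stage mean, over the 20 libraries and 16770 other tested genes. Such an r is a description only, since the points share their libraries, and its value in the 15 libraries not high in a marker is given beside it as a range. DRD1 had 44 genes with r of at least 0.9, PPP1R1B 16, ADORA2A 6 and SLC17A7 3, and the other 4 markers had 0. The nearest genes of DRD1 were GNAL (r = 0.964), the G protein subunit that couples the D1 receptor, MCTP1 (0.961), GPR52 (0.954), an orphan receptor of striatal neurons, ANKRD63 (0.951) and SOWAHA (0.950). For PPP1R1B they were F7 (0.957), PDE10A (0.949), GNG7 (0.947), a G protein subunit, MCTP1 (0.943) and ADORA2A (0.939). ADORA2A had PPP1R1B itself as its nearest gene, followed by genes that included GNG7 (0.914), PDE10A (0.903) and RAP1GAP (0.903). All of these genes had their highest level in D1 replicate 4. In the other 15 libraries r was 0.605 to 0.868 for the nearest genes of DRD1. It was −0.406 (PDE10A) to 0.432 (F7) for those of PPP1R1B and −0.228 (PDE10A) to 0.473 (GNG7) for those named for ADORA2A, so that PDE10A changed sign with both.

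DRD2 stood apart from the other striatal markers in this ranking. Its nearest genes were STRIP2 (0.845), HCFC1R1 (0.838), SYNDIG1L (0.791), CHRM5 (0.779) and MOSPD3 (0.757). Of the other striatal markers ADORA2A was at rank 202 of 16770 (r = 0.568), PPP1R1B at rank 830 (0.431) and DRD1 at rank 3131 (0.251). In the 15 libraries r was 0.709 to 0.919 for the 5 nearest genes, and it was 0.254 for ADORA2A, −0.005 for PPP1R1B and −0.246 for DRD1. CHRM5, a muscarinic receptor, was highest in M2 replicate 2, the library with the most DRD2 at that stage.

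None of the 5 nearest genes of a cortical marker was on the cortical list, of which 5 of 7 genes passed the filter (EMX1 and NEUROD2 did not). SLC17A7 was nearest to TAF11 (0.949), FBXW7 (0.922), LONRF1 (0.913), WSB2 (0.90) and PSMA5 (0.896), and NEUROD6 was nearest to TXN (0.888), PSMA5 (0.879), RNF19A (0.877), DNAJC21 (0.872) and CIR1 (0.835). All 9 of these different genes were highest in M4 replicate 1, at levels of 11.7 to 172 FPKM. In the 15 libraries r was 0.306 to 0.802 for the nearest genes of SLC17A7 and 0.425 to 0.757 for those of NEUROD6. NEUROD6 itself was at rank 35 for SLC17A7 (r = 0.827) and TBR1 at rank 166 (0.761), while the list gene LAMP5 was at rank 69 (0.805), KCNV1 at rank 84 (0.796) and CUX2 at rank 2377 (0.469). TBR1 was nearest to KIF5C (0.893), a kinesin of neurons, LHX6 (0.877), a factor of cells born in the ventral telencephalon, RB1CC1 (0.865), DDX47 (0.853) and CUL1 (0.831). LHX6 was highest in D1 replicate 1, at 8.44 FPKM, and its r with TBR1 was 0.916 in the 15 libraries, where the 4 other nearest genes had 0.738 to 0.840. Of the cortical list FEZF2, a factor of deep-layer neurons, was at rank 107 for TBR1 (0.723, and 0.569 in the 15).

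TCF7L2 was nearest to ZNF423 (0.863), SLITRK6 (0.844), GRID2IP (0.842), NOD2 (0.841) and PROX1 (0.836), each highest in M4 replicate 2, with r of 0.303 to 0.620 in the other 15 libraries. Of the listed thalamic genes SHOX2 was at rank 27 (0.766), PLEKHG1 at rank 55 (0.726) and NTNG1 at rank 62 (0.718). LEF1 (0.648), RORA (0.589) and GBX2 (0.589) followed, whereas PRKCD was at rank 5218 (0.164), SYNPO2 at rank 7437 (0.052) and TNNT1 at rank 12324 (−0.20). Its r with the cortical and striatal markers was negative for SLC17A7 (−0.459), NEUROD6 (−0.498), TBR1 (−0.344), DRD1 (−0.412), ADORA2A (−0.301) and PPP1R1B (−0.474), and close to 0 for DRD2 (0.013). In the 15 libraries it was 0.346 for DRD1, 0.138 for TBR1 and 0.017 for ADORA2A, so that these turned, and −0.230 for SLC17A7, −0.155 for NEUROD6, −0.286 for DRD2 and −0.538 for PPP1R1B.

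**Figure D4:**
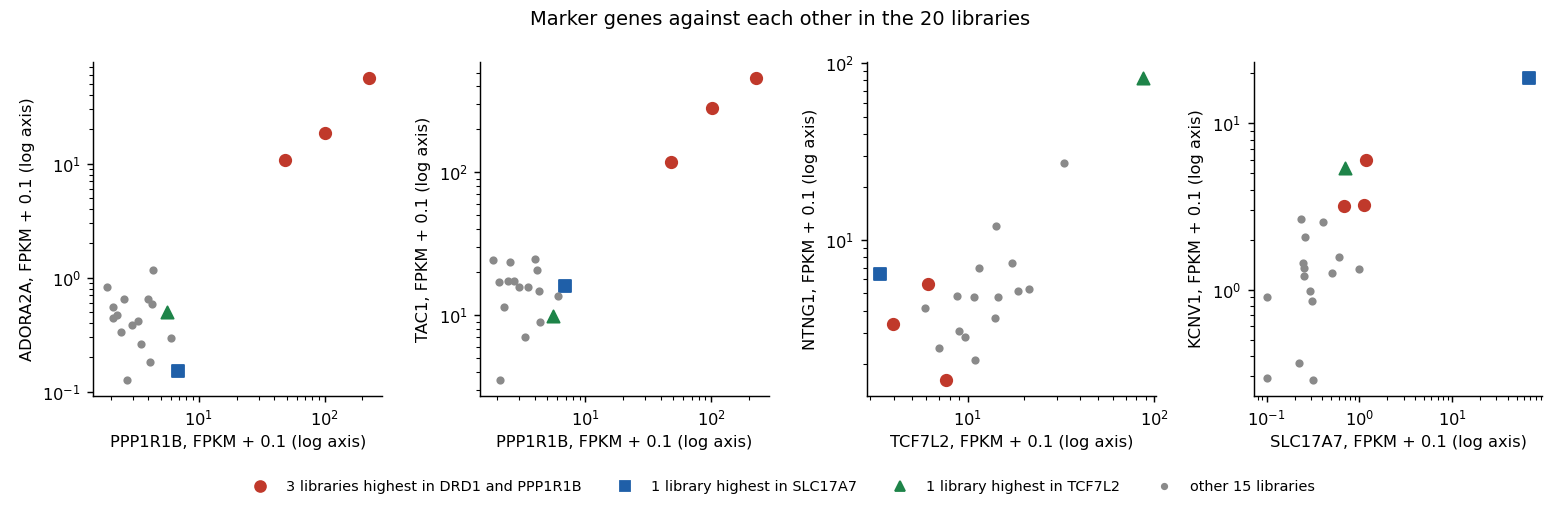
Each panel sets the FPKM + 0.1 of 2 genes against each other on log axes, 1 point per library, with the red, blue and green symbols for the 5 libraries high in a marker. ADORA2A and TAC1 are highest where PPP1R1B is highest, NTNG1 is highest where TCF7L2 is highest, and KCNV1 is highest in the single library with 68.0 FPKM of SLC17A7.

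The 20 libraries formed separate clusters for these genes, so no pooled correlation was tested. In the 15 libraries that were not high in a marker, the 28 pairs of markers were tested by permuting libraries within stages (two-sided, 100000 permutations). Pearson's r lay between −0.538 and 0.691, and 0 of 28 pairs passed after Benjamini-Hochberg adjustment. The lowest adjusted p was 0.397 for Pearson's r and 0.523 for Spearman's rho. Before adjustment 3 pairs were under 0.05. TBR1 and DRD1 had r = 0.691 (permutation p = 0.0386, rho = 0.515), which became −0.034 without the 2 libraries farthest from the median of TBR1, so that it rested on those libraries. PPP1R1B and TCF7L2 had r = −0.538 (permutation p = 0.0426, rho = −0.671), which was −0.663 without the 2 farthest libraries. NEUROD6 and DRD2 had r = 0.457 (permutation p = 0.0425, rho = 0.490), which was 0.479 without the 2 farthest libraries. The close relation of ADORA2A with PPP1R1B was not seen in these 15 libraries, where r was 0.324. The 5 libraries left out had been picked for high values of the markers, these 2 included.

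Apart from TCF7L2, the markers were among the most variable genes of the table between goats of the same age. The SD of log2(FPKM + 0.1) within stages was 2.65 for DRD1, rank 33 of the 16771 tested genes. It was 2.31 for ADORA2A, 2.08 for SLC17A7, 2.07 for TBR1, 2.06 for PPP1R1B, 1.91 for NEUROD6 and 1.64 for DRD2, all above the 97th percentile, and 1.10 for TCF7L2, at the 85.2 percentile. The median gene had an SD of 0.568. The SD of a low gene depends on the processing. Over its alternatives that of DRD2 ran from 0.761 to 2.27 and that of TBR1 from 0.949 to 3.24. Percentiles were not taken under other pseudocounts or scalings. Without the 5 high libraries, which were picked for these values, the SD of PPP1R1B was 0.388, at the 29.9 percentile, and that of TCF7L2 was 0.514, at the 49.1 percentile. ADORA2A was at 0.781, SLC17A7 at 0.875, DRD1 at 1.04 and NEUROD6 at 1.11, whereas TBR1 and DRD2 stayed above the 95th percentile at 1.76 and 1.45.

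Age was compared by limma on log2(FPKM + 0.1) over all 20 libraries, with 6 comparisons between the 4 stages that share libraries with each other. A call needed a Benjamini-Hochberg adjusted p below 0.05 together with a difference of 1 or more on the log2 scale, in either direction. No marker was called in any comparison, so 0 of 48 values passed. The share of all 16771 genes called was 0% for M2 vs D1, 0% for M4 vs M2, 0% for M6 vs M4, 0.0537% for M4 vs D1 (9 genes), 0.00596% for M6 vs D1 (1 gene) and 0% for M6 vs M2. With so few calls in the table, the count of 0 sets the markers apart from no other genes. The lowest adjusted p of a marker in limma was 0.658, and 0 of 48 had an unadjusted p under 0.05, against 6.14% to 15.6% of all genes in the 6 comparisons. The groups of 5 goats overlapped for every marker in every comparison. Over all genes, groups without overlap made up 3.82% for M2 vs D1, 1.09% for M4 vs M2, 0.775% for M6 vs M4, 1.93% for M4 vs D1, 2.84% for M6 vs D1 and 0.757% for M6 vs M2.

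The fold changes of the markers varied in size and were loosely determined. They ran from −2.28 for ADORA2A at M4 vs D1 (SE 1.32, 95% interval −5.02 to 0.47, limma adjusted p = 0.663) to 1.5 for the same gene at M6 vs M4. The stage means of ADORA2A, from high to low, were 11.7 ± 25.3 FPKM at D1, 3.96 ± 8.23 at M6, 2.58 ± 4.52 at M2 and 0.227 ± 0.211 at M4 (SD, n = 5 each). M4 was also the stage without a library high in striatal markers. The means of DRD1 were 31.4 ± 66.7, 12.6 ± 25.0, 2.95 ± 4.06 and 12.1 ± 24.8 FPKM and those of PPP1R1B 47.1 ± 100.1, 11.7 ± 20.4, 4.5 ± 1.68 and 23.7 ± 43.5 FPKM, both listed from the youngest stage to the oldest. For both, M4 was the lowest stage by mean, and no neighbours in either order differed beyond their spread. The medians of 5 did not follow this order. From the youngest stage to the oldest they were 1.64, 0.774, 0.953 and 0.846 FPKM for DRD1. Those of PPP1R1B were 2.44, 2.17, 4.19 and 4.02 FPKM, with M4 the highest. Without the 5 high libraries (n = 4, and n = 3 at M4) and in the same order, the means were 1.54 ± 1.31, 1.48 ± 1.68, 0.804 ± 0.182 and 1.08 ± 0.839 FPKM for DRD1 and 2.35 ± 0.459, 2.61 ± 1.11, 3.40 ± 0.791 and 4.26 ± 1.18 FPKM for PPP1R1B. Those of ADORA2A lay between 0.227 ± 0.241 at M4 and 0.562 ± 0.343 FPKM at M2.

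For SLC17A7 the order was M4 (13.8 ± 30.3 FPKM), D1 (0.484 ± 0.456), M6 (0.392 ± 0.360) and M2 (0.317 ± 0.236). NEUROD6 was likewise highest at M4, 4.78 ± 10.6 FPKM, through 1 library, while its M4 median was 0 FPKM. TBR1 was 1.56 ± 3.46 FPKM at M4, 1.22 ± 1.68 at M2, 0.583 ± 1.16 at D1 and 0.188 ± 0.217 at M6. DRD2 was 1.28 ± 1.62 FPKM at M6, 1.21 ± 1.38 at D1, 0.947 ± 0.839 at M2 and 0.870 ± 0.742 at M4. TCF7L2 was 24.9 ± 34.7 FPKM at M4, 15.9 ± 10.7 at D1, 13.4 ± 5.42 at M2 and 8.07 ± 1.46 at M6. In none of these genes did neighbouring stages differ beyond the spread between goats. Without the 5 high libraries the M4 mean was 0.0962 ± 0.0838 FPKM for SLC17A7, 0.0748 ± 0.130 for NEUROD6, 0.0131 ± 0.0226 for TBR1, 1.01 ± 0.768 for DRD2 and 11.6 ± 5.14 for TCF7L2 (SD, n = 3). M4 was then the lowest stage of SLC17A7 and TBR1 and no longer the highest of NEUROD6 or TCF7L2, and TCF7L2 was 18.9 ± 9.60 FPKM at D1, 15.2 ± 4.10 at M2 and 8.21 ± 1.65 at M6 (SD, n = 4 each).

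The standard error of a marker's fold change was 0.628 for TCF7L2 and 0.951 to 1.5 for the other 7, against a median of 0.358 over all tested genes. Regardless of sign, the median log2 difference of the 8 markers was 0.384 to 0.789 over the 6 comparisons, beside 0.275 to 0.368 for all genes. Of the other regional genes, 5 cortical, 11 striatal and 9 thalamic ones could be tested, and 0 were called by limma in any of the 6 comparisons. An unadjusted p under 0.05 was reached by 1 of 30 cortical, 2 of 66 striatal and 3 of 54 thalamic values. The hypothalamic list had 0 calls of 66 values and 8 with an unadjusted p under 0.05, at a lowest adjusted p of 0.456. Median differences over the comparisons ran from −0.63 to 0.20 for the cortical list, from −0.71 to 0.19 for the striatal list and from −0.75 to 0.39 for the thalamic list, beside −0.07 to 0.04 for all tested genes. They ran further for the hypothalamic list, from −1.10 to 1.83, and for the oligodendrocyte list, from −1.38 to 0.95. Single libraries turned the direction of 4 markers, each followed only in the comparison where its limma p was lowest. The SLC17A7 difference at M4 vs M2 was 1.17 with all libraries and −0.44 without M4 replicate 1, and the DRD1 difference at M4 vs D1 was −0.90 and became 0.48 without D1 replicate 4.

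**Figure D5:**
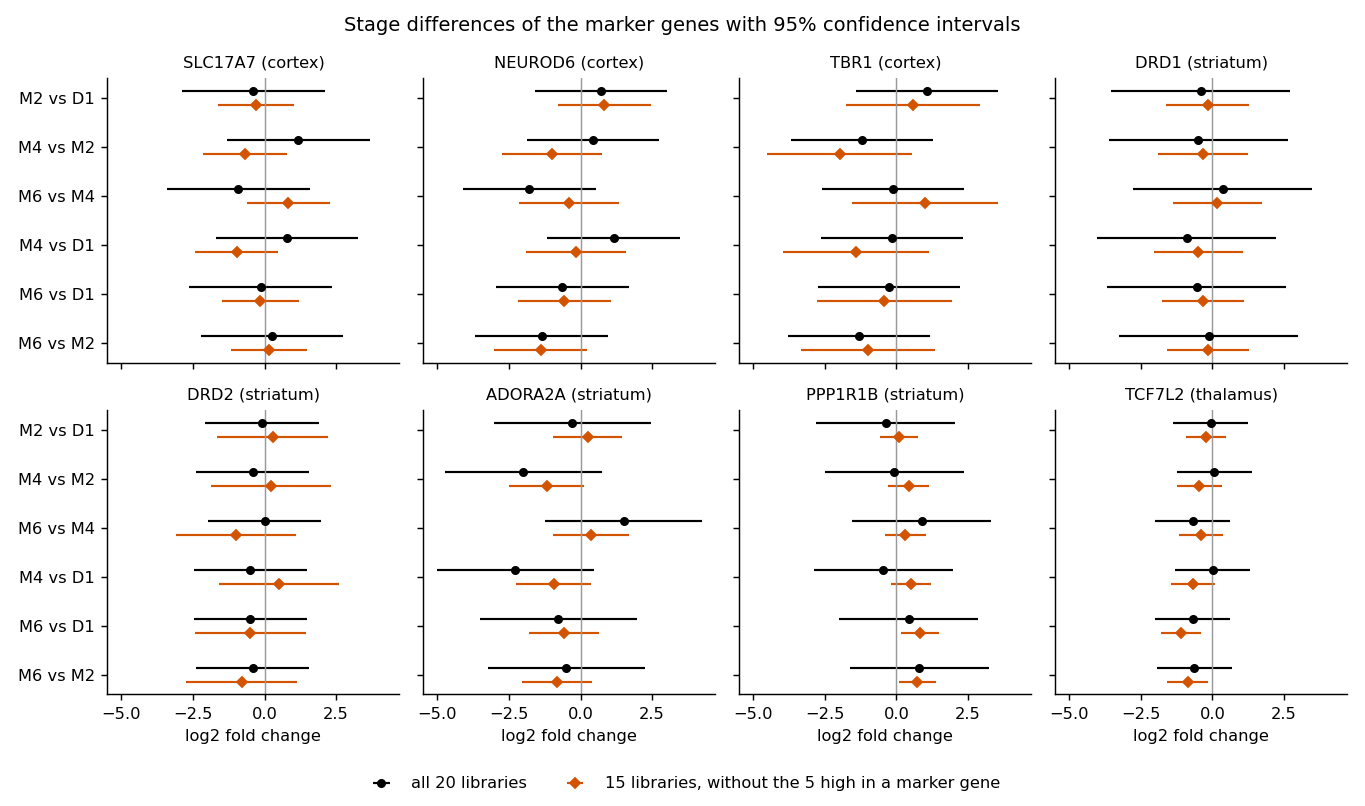
log2 fold changes (points) and 95% confidence intervals (bars) of each marker in the 6 stage comparisons, from all 20 libraries (black) and from the 15 that were not high in a marker (orange). Each black interval includes 0, and the orange intervals of PPP1R1B and TCF7L2 are the narrowest.

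Leaving out the 5 high libraries left 3 goats at M4 and 4 at each other stage. It narrowed most intervals, but not those of DRD2 and TBR1 in comparisons with M4. The 5 libraries were picked for high values of these same genes, so a smaller spread was built in by that choice. The intervals and p-values of this fit take no account of the choice and are a description only. The SE of PPP1R1B went from 1.16 to 0.310 at M6 vs D1, and that of TCF7L2 from 0.628 to 0.335. Again 0 of 48 values were called, beside 0.125% of genes at M6 vs D1 and at most 0.0119% in the other comparisons, and the lowest adjusted p in limma was 0.393. An unadjusted p under 0.05 was reached by 4 of the 48 values, all of TCF7L2 or PPP1R1B and all between M6 and D1 or M2. The share of all genes under 0.05 was not counted in this fit. With all 20 libraries it was 7.41% at M6 vs D1 and 6.14% at M6 vs M2. Whether the 4 values set the markers apart from other genes was therefore not tested. TCF7L2 was 10.9 to 32.6 FPKM in 4 goats at D1, 11.4 to 21.1 FPKM in 4 goats at M2 and 5.81 to 9.55 FPKM in 4 goats at M6, so that M6 lay below both. Its log2 difference at M6 vs D1 was −1.10 (SE 0.34, limma adjusted p = 0.393) and at M6 vs M2 −0.87 (SE 0.34, adjusted p = 0.530). PPP1R1B was 1.76 to 2.88 FPKM in 4 goats at D1 and 3.21 to 5.95 FPKM in 4 goats at M6, with a difference of 0.82 (SE 0.31, limma adjusted p = 0.559), and its difference at M6 vs M2 was 0.73 (limma adjusted p = 0.530) with groups that overlapped. Groups without overlap at M6 vs D1 were found for 3.66% of all genes with M6 lower and for 3.18% with M6 higher, and at M6 vs M2 for 1.22% with M6 lower. None of these differences passed the threshold across the table.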

How the data were processed

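RNA was sequenced from the hypothalamus of 20 goats, 5 per stage, and groups were taken from the sample titles. The authors trimmed reads with fastp, aligned them to the goat genome (ARS1.2) with HISAT2 2.0.5 and assembled and quantified transcripts with StringTie 1.3.3b; the deposited values are FPKM per gene, used here as deposited. Of 21071 gene rows 20610 matched the RefSeq annotation. The table holds no read counts, the sequencing totals the study gives were not used here, and precision comes from the 5 goats per stage; p-values measure the spread between goats.

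Values were taken as log2(FPKM + 0.1), a scale that understates changes of low genes. The 16771 genes that reached 0.1 FPKM in 5 or more libraries were fitted with limma 3.58.1 in R 4.3.3 (4 stages, variance trend), after a test on simulated data. Correlations used scipy 1.17.1. Pooled correlations of marker pairs were planned over 20 libraries and were made over 15, because the libraries fell into clusters. Leaving out the 5 libraries was chosen after seeing the data. The text names the 8 markers, the 5 nearest genes with a symbol for each, and genes of the marker lists; LAMP5 and others were picked from the lists after their values were seen. The markers and lists were chosen with earlier results of these data known. Alternatives were other pseudocounts (0.01 and 1), filters, scalings, variance models, library weights, a replicate block and leaving out each library. Mapping rates and transcript-level files were not used here, and some genes of the lists are not reported here.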

Additional observations from a re-analysis of the deposited data

Results flagged for a closer look

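A library was singled out where its gap to the nearest of the 4 others of its stage, divided by the range of the 5, exceeded Dixon's 95% critical value. About 1 of 20 groups of normally distributed values exceed it by chance. FPKM cannot fall below 0 and were used here without a log, so that rate need not hold. The share of all genes singled out by this rule was not counted. Among the markers a library was singled out in 16 of 32 combinations of marker and stage, always at the high end. Of the 16, 14 were in the 5 libraries high in a marker, which were picked for high values of the same genes. In M4 replicate 1 the values were 68.0 FPKM of SLC17A7, 23.7 of NEUROD6, 7.74 of TBR1 and 10.1 of DRD1. In D1 replicate 4 they were 150.6 FPKM of DRD1, 56.9 of ADORA2A and 226.2 of PPP1R1B. M2 replicate 4 held 57.2 FPKM of DRD1, 10.7 of ADORA2A and 48.1 of PPP1R1B, and M6 replicate 2 held 56.4, 18.7 and 101.5 FPKM of the same genes. M4 replicate 2 held 86.3 FPKM of TCF7L2. The remaining 2 were TBR1 at 2.65 FPKM in D1 replicate 1 and NEUROD6 at 0.0555 FPKM in M6 replicate 5, where the other 4 goats were listed at 0. DRD2 was singled out at no stage.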

How the results depend on the processing

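The number of markers called was 0 in each of the 6 comparisons under all 32 alternatives. The number of all genes called was not stable. For M2 vs D1 it was 0, and became 2 with pseudocount 1, 1 without a filter, with only the 10 libraries compared, without a variance trend or without the 5 high libraries, 148 with library quality weights and 0 to 10 with one library left out (10 without D1 replicate 4). For M4 vs M2 it was 0, then 1 with pseudocount 1 and 0 to 3 with one library left out. For M6 vs M4 it was 0, and 1 without the 5 high libraries. For M4 vs D1 it was 9, then 0 with only the 10 libraries compared, 5 with quantile normalization or median-ratio scaling, 65 with weights, 2 without the 5 high libraries and 4 to 32 with one left out (32 without D1 replicate 4). For M6 vs D1 it was 1, then 0 with either other pseudocount, the mean filter, only the 10 libraries or the replicate block, 2 without a filter or with median-ratio scaling, 3 without a trend, 95 with weights, 21 without the 5 high libraries and 0 to 20 with one left out. For M6 vs M2 it was 0, then 1 with pseudocount 1 and 0 to 1 with one left out. The replicate block gave 7 genes at M4 vs D1 and 0 in the other comparisons. Libraries with the same number had r between −0.246 and 0.430, and 3 of 20 correlated best with their own number. The SLC17A7 difference at M4 vs M2 (1.17) was −0.25 with weights, −0.68 without the 5 high libraries and −0.44 to 1.91 with one library left out. DRD1 at M4 vs D1 (−0.90) ranged from −1.61 to 0.48, DRD2 at M6 vs D1 (−0.50) from −1.13 to 0.032, through leaving out D1 replicate 4 (0.02) or M6 replicate 3 (0.032), and PPP1R1B at M6 vs M4 (0.88) from −0.034, without M6 replicate 2, to 1.2. ADORA2A at M4 vs D1, NEUROD6 at M6 vs M4, TBR1 at M6 vs M2 and TCF7L2 at M6 vs M4 kept their direction in all 31 alternatives, but not their size. With one library left out, TCF7L2 went from −0.70 to as little as −0.015 and NEUROD6 from −1.79 to −0.30. ADORA2A went from −2.28 to −0.92 and TBR1 from −1.32 to −0.62. Each marker was followed only in the comparison where its limma p was lowest, so its direction in the other comparisons was not checked. The SD of SLC17A7 fell to 1.08 and that of NEUROD6 to 0.96 without M4 replicate 1. The number of marker pairs passing adjustment was 0 in all 20 alternatives. The causes were not tested. How precise values near 0 FPKM are cannot be read from the table, which holds no read counts.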
